A study of Mus musculus with 2 samples.

Results

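The forkhead factors of mesoderm and endoderm described here are 10 genes, Foxa1, Foxa2, Foxc1, Foxc2, Foxd1, Foxf1, Foxf2, Foxp1, Foxp2 and Foxp4. They were taken by symbol, and each named exactly 1 of the 21937 gene features. They are 10 of 44 forkhead genes in the table. All 10 were detected as UMIs, the molecule tags that count captured transcripts once each, and no member was left out for a low count. In GRCm38.p6 they lie at chr12:57540628-57548029 (Foxa1), chr2:148042877-148046969 (Foxa2), chr13:31806646-31810635 (Foxc1), chr8:121116171-121118895 (Foxc2), chr13:98354245-98356705 (Foxd1), chr8:121084386-121088154 (Foxf1), chr13:31625816-31631406 (Foxf2), chr6:98925342-99522746 (Foxp1), chr6:14901349-15441977 (Foxp2) and chr17:47867133-47924632 (Foxp4).

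The genes were followed in single cells of whole mouse embryos at E11.5, after removal of placenta and yolk sac. Suspensions F0_8 and F0_9 each came from 1 founder embryo, grown from a C57BL/6J egg that had received mRNA of the mPBase transposase by electroporation and donor DNA by pronuclear injection. F1_1 came from 1 embryo of the following (F1) generation. F1_mix imitated a mosaic animal and was made by mixing cells of 2 F1 embryos. All 4 suspensions carried the same kind of transgene, an EGFP cassette driven by the CAG promoter, inserted by piggyBac and linked to a DNA barcode, so there was no suspension without it. They were tagged with separate oligos and captured in 1 droplet library. The used cells numbered 1310 to 1599 per suspension, 5678 in all, with median depths of 10880 to 13267 gene UMIs, and no cell barcode was shared between suspensions.

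Forkhead factors bind DNA through a winged-helix domain. Foxa1 and Foxa2 open chromatin for other factors in the endoderm and its gut, lung and liver derivatives, and Foxa2 also specifies the floor plate, the ventral midline of the neural tube. Foxc1 and Foxc2 act in somites, head mesenchyme, meninges and vessels, Foxd1 marks kidney stroma and other mesenchyme, and Foxf1 and Foxf2 are induced by hedgehog signals in the mesenchyme around the gut. Foxp1, Foxp2 and Foxp4 form dimers with each other, act as repressors and are used in lung, heart and neurons.

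Cell types are the 16 names in the authors' deposited annotation. Of the 12 deep types, 7 ranked 1 for the summed level of their own 4 markers, namely Ependymal Cell, Epithelial Cell, Gut Mesenchyme/Amniotic Mesoderm, Mesodermal Progenitor, Myoblast/Cardiomyocyte, Hematoendothelial Progenitor/Endothelium and Erythrocyte. The Hematoendothelial type also held 5536 UMIs of 4 macrophage markers (C1qa, C1qb, Fcer1g and Tyrobp) against 947 of its 4 endothelial markers, so it is called by its name only. The gut mesenchyme markers included Foxf1 itself, so that rank is not independent of the members. It was also narrow, at 1.85 per 10000 UMIs outside mitochondrial and haemoglobin genes, against 1.56 in Myoblast/Cardiomyocyte and 1.54 in Mesodermal Progenitor. Among the other types, Neuroectoderm/Glia ranked 6 among the 12 for its own markers and 1 for those of CNS Neuron (75.1 per 10000 UMIs outside mitochondrial and haemoglobin genes, against 57.0 in CNS Neuron), while CNS Neuron ranked 1 for the Neuronal Progenitor markers (8.28 against 5.19 in Neuronal Progenitor). Erythroblast ranked 3 for its own. The Chondrocyte type held only 16 UMIs of Acan and 4 of Matn1, which encode cartilage matrix proteins, and its Col2a1 level of 2.78 per 10000 was below the 3.27 of the gut mesenchyme type. The marker sum of Ependymal Cell rested on few cells, as 10 of its 137 cells had a UMI of Ttr, 1 of them with 627, and 29 had one of Foxj1, while 97 had one of the neural progenitor gene Sox2. These names too are used only as names.

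There were 4 further types, Hepatocyte, Foregut, Midgut and Endodermal Progenitor. Markers went against the names of Hepatocyte, Midgut and Endodermal Progenitor and were mixed for Foregut. All 4 are called shallow, since their median depth, 721.5 to 1674 gene UMIs, was under the overall median divided by 3. Mitochondrial genes gave a median of 23.0% to 55.9% of their UMIs. Among 543 cells named Hepatocyte there was 1 UMI of Alb and none of Afp, the albumin and fetal liver protein genes. Midgut cells held no UMI of Cdx2, a gene that defines hindgut and midgut epithelium. Endodermal Progenitor cells held none of Sox17 or Epcam. Their names are likewise used only as names.

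Promoter sequences are shown for 2 pairs that the results turn on, Foxa1 with Foxa2, which shared cells more often than independence within cell types gives, and Foxc1 with its chromosomal neighbour Foxf2. Each is the 150 bases before the first RefSeq start in GRCm38.p6, 5′ to 3′ on the strand of the gene. Capitals mark matches on either strand to the forkhead core TGTTTAC, the CCAAT box, the GC box GGGCGG or the TATA box TATAAA. The stretches lie at chr12:57546112-57546261 (minus strand) for Foxa1, chr2:148046970-148047119 (minus strand) for Foxa2, chr13:31806496-31806645 (plus strand) for Foxc1 and chr13:31625666-31625815 (plus strand) for Foxf2.
Foxa1: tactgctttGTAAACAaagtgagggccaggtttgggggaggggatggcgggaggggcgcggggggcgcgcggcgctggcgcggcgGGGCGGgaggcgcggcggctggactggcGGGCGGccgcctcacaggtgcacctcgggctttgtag
Foxa2: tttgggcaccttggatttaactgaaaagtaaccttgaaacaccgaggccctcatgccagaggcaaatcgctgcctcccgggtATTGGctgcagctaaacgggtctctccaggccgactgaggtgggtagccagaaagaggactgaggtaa
Foxc1: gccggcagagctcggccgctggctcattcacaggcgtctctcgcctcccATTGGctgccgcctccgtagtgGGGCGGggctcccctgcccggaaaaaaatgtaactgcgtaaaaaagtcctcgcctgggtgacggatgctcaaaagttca
Foxf2: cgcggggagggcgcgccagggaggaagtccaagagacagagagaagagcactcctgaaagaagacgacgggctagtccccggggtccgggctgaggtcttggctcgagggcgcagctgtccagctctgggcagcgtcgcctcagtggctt

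The Foxa1 stretch held the 1 forkhead core found among the members, 134 bases before the start, and 2 GC boxes. Foxa2 had 3 RefSeq starts, and the stretch before the first held a CCAAT box. The Foxf2 stretch held no match, although 2 GC boxes lay farther upstream, at 195 and 221 bases from the start. RefSeq promoters were matched for 7 of 10 members, and these have 11 RefSeq starts between them. Over whole windows of 250 bases, 1 of 11 held the forkhead core, 5 of 11 a CCAAT box, 9 of 11 a GC box and 1 of 11, at the third Foxa2 start, a TATA box. Of 32851 windows of the same length over all genes and starts, 3.17% held the forkhead core, 33.8% a CCAAT box, 32.7% a GC box and 12.4% a TATA box. A match is a string of letters and not a measured site.

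The members differed by more than an order of magnitude in how widely their UMIs were spread. Foxa1 and Foxa2 gave 188 and 272 UMIs in 103 and 99 cells. Foxc1 gave 1883 UMIs in 767 cells, Foxc2 968 in 482, Foxd1 4123 in 749, Foxf1 1226 in 296 and Foxf2 408 in 211. Foxp1, Foxp2 and Foxp4 gave 15795, 18086 and 5555 UMIs in 3732, 2812 and 2491 cells. For each gene 50% of the UMIs lay in a smaller number of cells, namely 23 for Foxa2, 27 for Foxa1, 58 for Foxf2, 61 for Foxf1, 118 for Foxc2, 130 for Foxd1, 184 for Foxc1, 355 for Foxp2, 595 for Foxp4 and 700 for Foxp1, with no correction for the total UMIs of each gene. Levels are given below as UMIs per 10000 gene UMIs, and where 4 values follow each other they belong to F0_8, F0_9, F1_1 and F1_mix in that order. Cells were clustered on these same genes, so levels across types are a description without a test.

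**Figure D1:**
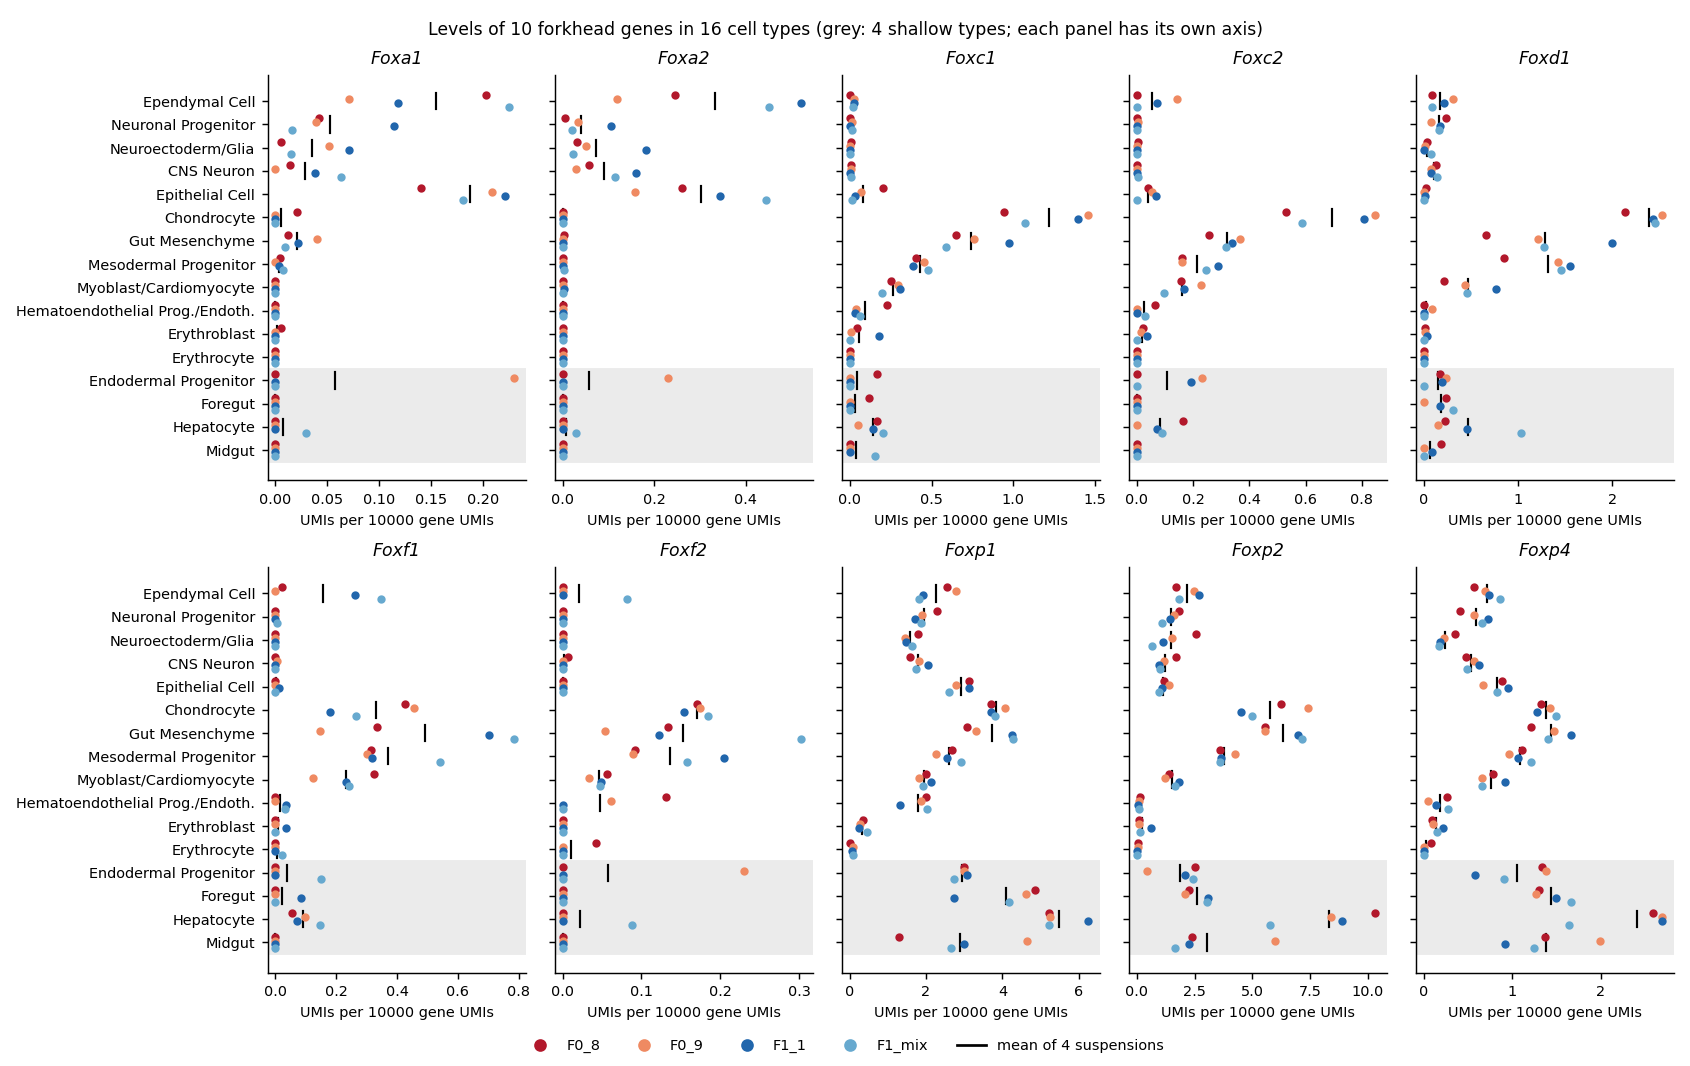
Level of each of the 10 genes (x axis, UMIs per 10000 gene UMIs, a separate axis for each gene) in 16 cell types (y axis), with 1 point per suspension and a bar at their mean. Foxa1 and Foxa2 lie in epithelial and neural types, Foxc, Foxd1 and Foxf genes in 4 mesenchymal and muscle types, and Foxp genes have their highest means in the shallow type named Hepatocyte (8.34 for Foxp2), with overlapping ranges for Foxp2 and Foxp4.

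The UMIs of 8 members lay mainly in 4 mesenchymal and muscle types, namely Chondrocyte, Gut Mesenchyme/Amniotic Mesoderm, Mesodermal Progenitor and Myoblast/Cardiomyocyte. These types held 95.8% of Foxc1, 95.2% of Foxc2, 92.0% of Foxd1, 96.0% of Foxf1 and 95.8% of Foxf2 UMIs, and 60.6%, 72.8% and 67.4% of those of Foxp1, Foxp2 and Foxp4. Foxa1 and Foxa2 were the exceptions, with 12.8% and 1.10%. Of all 68972620 gene UMIs, the 4 mesenchymal and muscle types held 3512332, 9055614, 9582659 and 12402415, in the order named. The Foxp shares, that of Foxp1 most of all, stood nearer to this share of all genes than the Foxc, Foxd1 and Foxf shares did. Only 3 members, Foxc1, Foxc2 and Foxd1, had the same leading type in 4 of 4 suspensions among the 9 deep types with 20 or more cells in each, and this 30% stood beside 27.8% of the 12229 genes with at least as many UMIs as the lowest member.

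**Figure D2:**
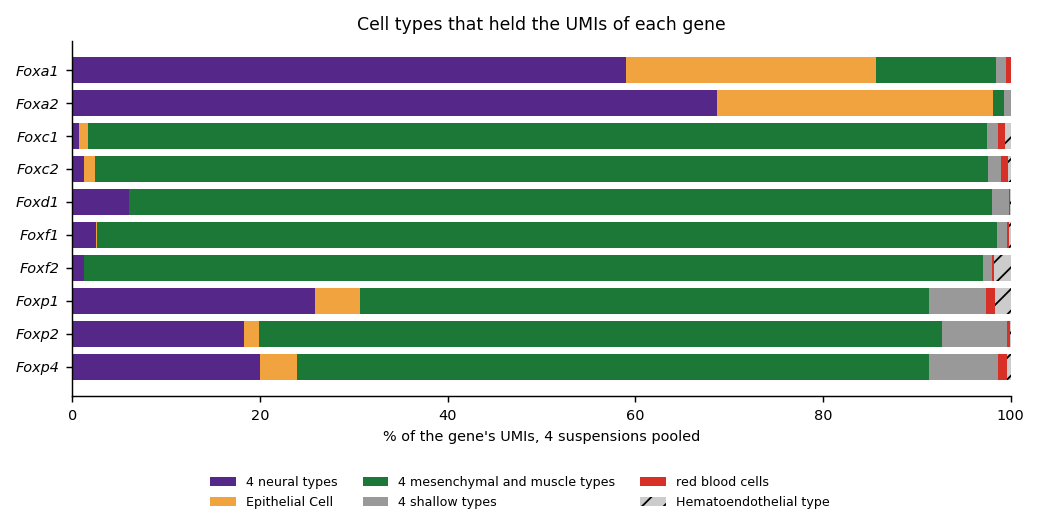
Share of each gene's UMIs (x axis, %) by group of cell types, with the 4 suspensions pooled. Neural types held 59.0% of Foxa1 and 68.8% of Foxa2 UMIs, and mesenchymal and muscle types over 60% of those of every other member. The mesenchymal and muscle types also held the largest part of the UMIs of all genes.

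Foxa2, required for definitive endoderm and floor plate, was found in neural and epithelial cells and gave few UMIs in the shallow types with endodermal names. Its highest mean level was in the Ependymal Cell type, 0.334 ± 0.19 (SD, n = 4), from 0.244, 0.118, 0.520 and 0.451. The Epithelial Cell type followed at 0.302 ± 0.12, from 0.261, 0.157, 0.344 and 0.445. These ranges overlapped, and each type led in 2 of 4 suspensions. CNS Neuron cells gave 0.0569, 0.0302, 0.160 and 0.115, and the 4 neural types together (Ependymal Cell, Neuronal Progenitor, Neuroectoderm/Glia and CNS Neuron) held 187 of the 272 UMIs, or 68.8%.

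Foxa1, which shares much of the activity of Foxa2, was distributed in a similar way. It was highest in Epithelial Cell at 0.188 ± 0.036 (SD, n = 4), from 0.141, 0.209, 0.222 and 0.181, and gave 0.204, 0.0709, 0.118 and 0.226 in Ependymal Cell. The ranges of the pair again overlapped. After thinning to 5000 UMIs, a Foxa2 UMI was found in 12.5%, 6.25%, 13.3% and 12.1% of Ependymal Cell cells and a Foxa1 UMI in 3.57%, 11.8%, 5.66% and 5.71% of Epithelial Cell cells, with 13.2% and 17.1% as the means without thinning. Neither gene was found in 202 red blood cells at that depth. Foxa1 also had 18 UMIs in 12 cells of the gut mesenchyme type, where Foxa2 had 1. In the Epithelial Cell type, 10 cells with Foxa1 at 5000 UMIs were set against 140 without. Of the 7 endoderm and epithelium genes with 20 or more UMIs, 1 was higher in all 4 suspensions, the keratin gene Krt8 (5.80 against 2.61), and 0 lower, with a median ratio of 1.78. Of 4 floor plate genes 0 were higher and 1 lower, with a median of 0.921. At 2000 UMIs none of 7 and none of 2 was higher or lower in all 4.

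The 4 shallow types, 1369 cells with 2169292 gene UMIs, held 2 UMIs of Foxa1 and 2 of Foxa2, a pooled level of 0.00922 for each (exact Poisson 95% interval 0.00112 to 0.0333). Foregut and Midgut held none of either gene. The pooled level in Epithelial Cell was 0.194 for Foxa1 (0.144 to 0.256) and 0.310 for Foxa2 (0.246 to 0.386). Both intervals lie above that of the shallow types pooled. Endodermal Progenitor alone, with 1 UMI of each gene, gave 0.0451 (0.00114 to 0.251), an interval that overlaps both of these. Droplets of 1 to 100 UMIs gave 0.0335 for Foxa1 and 0.0201 for Foxa2. In the mesenchymal and muscle types Foxa2 had 3 UMIs among 34553020, and in 204 red blood cells it had 0 among 5882201, where 3 counts would be a level of 0.0051 and the exact Poisson interval ends at 0.00627. Intervals and limits from counts cover counting error only.

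Genes found together with Foxa2 were then counted type by type. Among 18 such cells in the Ependymal Cell type, 16 had a UMI of Shh, the ventral signalling ligand, and 15 each of Ntn1 and Spon1, which encode secreted axon guidance and adhesion proteins of the floor plate. The corresponding shares in the 119 other cells were 9.24%, 11.8% and 34.5%, and the cells with Foxa2 were not deeper (median 10721 against 12593 UMIs). After thinning each cell to 5000 UMIs, 5 of 6 floor plate genes with enough UMIs were higher in the Foxa2 cells in all 4 suspensions, with a median ratio of 8.49 over the list. Spon1 stood at 18.4 per 10000 in 15 cells with Foxa2 and 2.05 in 120 without, and the exception, the midbrain floor plate gene Lmx1a, at 0.40 and 1.3. None of 4 dissociation stress genes was higher in all 4. At 2000 UMIs per cell only 4 genes could be compared, and 2 were higher in all 4. Of 3 endoderm and epithelium genes in this type, 0 were higher or lower in all 4 at 5000 UMIs, and 1 was higher and 1 lower at 2000.

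Among 27 Epithelial Cell cells with Foxa2, all 27 had a UMI of the epithelial adhesion gene Epcam, 26 of the tight junction gene Cldn6 and 27 of keratin gene Krt18, and 20 had one of Shh (74.1%, against 8.87% of 124 others). Epcam itself was found in 98.4% of the others and did not set the cells apart. The transcription factor gene Nkx2-1, of lung and thyroid, was found in 5 of 27 cells and in 0.806% of the others.

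Epcam was not part of the pattern in neurons. Of 19 CNS Neuron cells with Foxa2, 9 had a UMI of Sim1 (47.4%, against 5.26% of 513 others), 5 one of Lmx1a and none one of Epcam. In Neuroectoderm/Glia 7 of 14 had Sim1. Of 16 Neuronal Progenitor cells with Foxa2, all had Sox2, 11 had Shh and 9 had Nkx2-2, a ventral progenitor gene found in 2.75% of the 581 others. Nkx2-2 was not in the lists of companions and was chosen after its values were seen. These groups are of 14 to 27 cells, and cells of 1 suspension are not replicates.

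**Figure D3:**
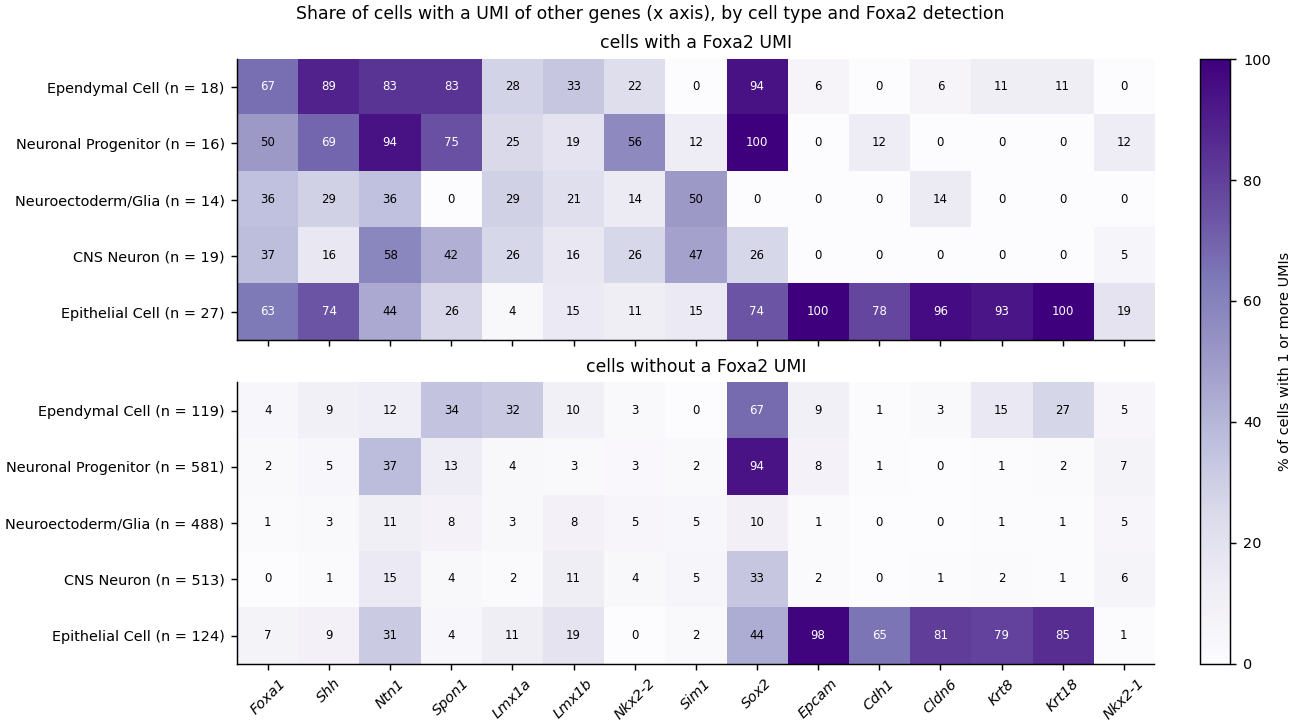
Share of cells (%, colour and number) with 1 or more UMIs of 15 other genes (x axis) in 5 deep cell types (y axis, n = number of cells), for cells with a Foxa2 UMI (top) and without (bottom), not thinned. Shh, Ntn1 and Spon1 mark the Foxa2 cells of Ependymal Cell and Neuronal Progenitor, while Epcam was found in 27 of 27 Foxa2 cells of Epithelial Cell and in at most 1 of the Foxa2 cells of each neural type.

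Foxc1 and Foxc2, which act together in somites and vessels, were led by the Chondrocyte type in every suspension. Foxc1 gave 0.945, 1.46, 1.40 and 1.07 there, a mean of 1.22 ± 0.25 (SD, n = 4), followed by gut mesenchyme at 0.743 ± 0.17, Mesodermal Progenitor at 0.431 ± 0.042 and Myoblast/Cardiomyocyte at 0.262 ± 0.051. The ranges of Chondrocyte and gut mesenchyme overlapped. That of gut mesenchyme lay apart from that of Mesodermal Progenitor, and the latter apart from that of Myoblast/Cardiomyocyte. The Myoblast/Cardiomyocyte range overlapped that of the next type, the shallow Hepatocyte. Foxc2 gave 0.531, 0.848, 0.807 and 0.587 in Chondrocyte, a mean of 0.693 ± 0.16, and 0.319 ± 0.047 in gut mesenchyme, with no overlap. The 4 neural types together held 14 UMIs of Foxc1 and 12 of Foxc2. After thinning to 5000 UMIs, 38.5% ± 9.4 of Chondrocyte cells had a Foxc1 UMI, from 25.6%, 40.2%, 48.2% and 40.0%, and 25.3% ± 8.3 a Foxc2 UMI. Without thinning the shares were 53.4% and 39.6%, and red blood cells gave 2 and 1 of 202 thinned cells. The Hematoendothelial type held 12 and 3 among 1420170.

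In the Chondrocyte type, cells with a Foxc1 UMI at 5000 UMIs per cell (110 against 184) had higher Col2a1, the main cartilage collagen (4.60 against 2.30), the meningeal and somite factor gene Zic1 (2.62 against 1.37) and the chemokine gene Cxcl12 (2.11 times), in all 4 suspensions. Meox1, a somite homeobox gene, was lower in all 4 (0.145 against 0.511). Of the paraxial mesoderm, cartilage and meninges list, 13 genes had 20 or more UMIs here, and 3 were higher and 1 lower in all 4, with a median ratio of 1.2. At 2000 UMIs per cell 2 of 7 were higher and 0 lower. For Foxc2 the same list gave 1 higher (Zic1), 2 lower (Meox2 and the sclerotome gene Pax1) and a median of 0.90, and at 2000 UMIs none of 7 was higher or lower in all 4. The stress genes Fos and Jun, induced by tissue dissociation, were also higher in the Foxc1 cells in all 4 suspensions, by 1.31 and 1.5 times, and their part in these differences was not tested.

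Foxd1, a gene of kidney stroma, also had its highest level in Chondrocyte in every suspension. It gave 2.13, 2.53, 2.43 and 2.45 there, a mean of 2.39 ± 0.17 (SD, n = 4) whose range lay above all other types. Mesodermal Progenitor followed at 1.32 ± 0.32 and gut mesenchyme at 1.28 ± 0.55, the latter from 0.663, 1.21, 1.99 and 1.27. F0_8 was the lowest suspension in both. Foxd1 had 249 UMIs in neural types, where it marks part of the forebrain, and 137 of these lay in Neuronal Progenitor. In cells of the Chondrocyte type with Foxd1 none of the 9 genes of the stroma and forebrain list with 20 or more UMIs was higher in all 4 suspensions, and Meis1 and Pdgfra were lower in all 4 by small ratios (0.796 and 0.882), though none of 8 was at 2000 UMIs.

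Foxf1 and Foxf2, the hedgehog-induced genes of gut mesenchyme, had low and uneven levels. Foxf1 was highest in Gut Mesenchyme/Amniotic Mesoderm by its mean, 0.492 ± 0.30 (SD, n = 4), but from 0.335, 0.146, 0.702 and 0.784. In both founder suspensions the Chondrocyte type stood above it (0.425 and 0.457, against 0.179 and 0.265 in the F1 suspensions). Foxf2 gave 0.170 ± 0.013 in Chondrocyte, 0.153 ± 0.11 in gut mesenchyme and 0.136 ± 0.056 in Mesodermal Progenitor, with ranges that overlapped. Epithelial Cell held 1 UMI of Foxf1 and 0 of Foxf2.

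Cells with Foxf1 in gut mesenchyme more often had a UMI of the hedgehog genes Ptch1 and Hhip, although the wider list below was mixed. Of 98 such cells, 86 had a UMI of the receptor and target gene Ptch1 (87.8%, against 50.2% of 576 others), 28 of the antagonist gene Hhip (28.6% against 4.34%), 25 of Foxl1, a forkhead gene beside Foxf1 and Foxc2 (25.5% against 1.22%), and 49 of Foxf2 (against 3.99%). The median depths were 13629 and 13311.5 UMIs. The visceral mesoderm gene Tcf21 was found in 27.6% against 2.78%. The limb genes Tbx4 and Tbx5 went the other way, with Tbx5 in 8.16% against 21.2%.

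Thinned to 5000 UMIs, Ptch1, Hhip and Hand1 were higher in the Foxf1 cells in all 4 suspensions and Gli2, Gli3, Tbx4, Tbx5 and Gata6 lower, out of the 18 genes of the hedgehog and BMP list with 20 or more UMIs (median ratio 1.18). At 2000 UMIs per cell 2 of 14 were higher and 3 lower in all 4, and the median turned to 0.667. At 5000 none of 4 dissociation stress genes was higher or lower in all 4. Ptch1 stood at 4.95 in 65 cells with Foxf1 and 1.15 in 603 without. The Gli genes encode the transcription factors of the pathway. The co-occurrence with Ptch1, Hhip and Foxf2 was not limited to gut mesenchyme, as of 69 Foxf1 cells in Mesodermal Progenitor 66 had Ptch1 (95.7%, against 58.8% of 427 others), 30 had Hhip (43.5% against 5.85%) and 39 had Foxf2 (56.5% against 4.22%), not thinned. In the Chondrocyte type, 16 cells with Foxf2 had 5.31 times the Ptch1 level of 278 others, and Ptch1 was the 1 gene of 13 on that list that was higher in all 4 suspensions, with 5 lower and a median ratio of 0.446. At 2000 UMIs none of 9 was higher in all 4 and 4 were lower, with a median of 0.582. Of the dissociation stress genes, 1 of 4 was higher in the Foxf2 cells in all 4 suspensions (median ratio 1.54 at 5000 UMIs), and its part was not tested.

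Foxp1, Foxp2 and Foxp4 were broad. Foxp1 had similar means in Chondrocyte, 3.83 ± 0.17 (SD, n = 4), and gut mesenchyme, 3.73 ± 0.63, and never fell below 1.44 in any suspension of a deep type other than the Hematoendothelial and red blood types. In the Hematoendothelial type it gave 1.31 to 2.02. Foxp2 gave 6.31 ± 0.88 in gut mesenchyme, from 5.54, 5.57, 6.97 and 7.16, and 5.77 ± 1.3 in Chondrocyte, from 6.22, 7.39, 4.49 and 4.99. In the Hematoendothelial type Foxp2 had 12 UMIs, a mean level of 0.0842. Foxp4 gave 1.44 ± 0.19 in gut mesenchyme and 1.38 ± 0.097 in Chondrocyte. For each of the 3 genes those types overlapped and each led in 2 of 4 suspensions.

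By their means all 3 Foxp genes were higher still in the shallow type named Hepatocyte, at 5.49 for Foxp1, 8.34 for Foxp2 and 2.41 for Foxp4, while none of the other 7 members had its highest mean in a shallow type. The Foxp1 range there, 5.22 to 6.25, lay above all other types. Those of Foxp2 (5.76 to 10.3) and Foxp4 (1.64 to 2.70) overlapped gut mesenchyme (5.54 to 7.16 and 1.21 to 1.67). With shallow types included, Foxp1 was the 1 Foxp gene with the same leading type in 4 of 4 suspensions, and none was when mitochondrial and haemoglobin UMIs were left out of the totals. Foxp1, Foxp2 and Foxp4 are also the long members, spanning 597 kb, 541 kb and 57.5 kb of genome, against 2.46 to 7.40 kb for the rest. Droplets outside the used cells with more than 100 and up to 300 UMIs gave 5.71 for Foxp2 and 3.92 for Foxp1, against 1.82 and 1.71 in droplets of 1 to 100 UMIs. Foxc1 gave 0.253 and 0.181 in the same droplets, Foxd1 0.376 and 0.455, and the third long gene, Foxp4, 1.03 and 0.749. The part of genomic length, depth and mitochondrial share in the Foxp levels was not tested. Red blood cells, among the lowest types for these genes, had a Foxp1 UMI in 13.4% of 202 cells thinned to 5000 UMIs (exact Clopper-Pearson 95% interval 9.0% to 18.8%), against 63.0% ± 2.8 (SD, n = 4) of Chondrocyte cells (85.1% without thinning). Foxp1 stood at 0.339 in Erythroblast and 0.0644 in Erythrocyte with the suspensions pooled. Per 10000 UMIs outside mitochondrial and haemoglobin genes these became 0.389 and 0.213, and the suspensions overlapped (0.254 to 0.484 and 0 to 0.319). Foxp2 was found in 3.47% of them, against 65.7% ± 4.5 in gut mesenchyme (78.5% without thinning).

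Neurons with each Foxp gene were compared with neurons without it. CNS Neuron cells with Foxp1 (275 against 240, thinned to 5000 UMIs) had more Lhx1 (2.58 against 1.65) and Lhx5 (2.56 against 1.69), LIM factor genes of interneurons, and less Isl1, of motor and sensory neurons (1.42 against 2.23), in all 4 suspensions. These 3 were the genes that were higher (2) or lower (1) in all 4 among the 9 of the spinal motor neuron and interneuron list with 20 or more UMIs. For Foxp2 (147 cells against 368), 1 of 9 was higher in all 4, the interneuron gene En1 (0.463 against 0.136), and 2 were lower, Isl1 (0.912 against 2.15) and Hoxc9 (0.653 against 0.859). For Foxp4 (107 against 408), En1 was lower in all 4 (0.0187 against 0.284) and no gene higher. The median ratios over the list were 1.12, 0.834 and 0.997. None of these differences was seen in all 4 suspensions at 2000 UMIs per cell, where 1 of 8 genes was higher and 1 lower for Foxp1 (En1 and Hoxc9), 0 and 1 for Foxp2 (Hoxa10) and 0 and 0 for Foxp4. Of 4 dissociation stress genes, 2 were lower in the Foxp2 cells in all 4 at 5000 UMIs, and their part was not tested.

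Paralogs were found in the same cells more often than independence within a cell type gives, which is given as a description with no test. With cells thinned to 5000 UMIs, the count of cells with both Foxa1 and Foxa2 was 4.88 ± 1.2 times (SD, n = 4) the count expected within types, though it rested on 14 cells of the 60 with Foxa1 and 52 with Foxa2, so most cells with 1 of the pair had no UMI of the other. Foxf1 and Foxf2 gave 6.10, 5.33, 4.50 and 3.83, a mean of 4.94 ± 0.99, from 43 cells. Foxc1 and Foxc2 gave 1.95 ± 0.36 from 115 cells. All 3 pairs were above 1 in every suspension at 5000 UMIs. At 2000 UMIs Foxa1 with Foxa2 rested on 3 cells and was above 1 in 2 of 4 suspensions, with 0 cells in F0_9 and F1_1.

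Foxp pairs exceeded 1 by little, at 1.10 ± 0.032 for Foxp1 with Foxp2, 1.13 ± 0.022 for Foxp1 with Foxp4 and 1.19 ± 0.016 for Foxp2 with Foxp4. Of the chromosomal neighbours, Foxc1 and Foxf2, 175 kb apart on chromosome 13, gave 1.89 ± 0.16. Foxf1 and Foxc2, 28.0 kb apart on chromosome 8, gave 1.10 ± 0.38, with F1_mix at 0.535. At 2000 UMIs Foxc1 with Foxf2 gave a mean of 0.663, which rested on 3 cells with both genes against 4.49 expected, with F1_mix at 1.06, while the value at 5000 UMIs rested on 39 cells.

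**Figure D4:**
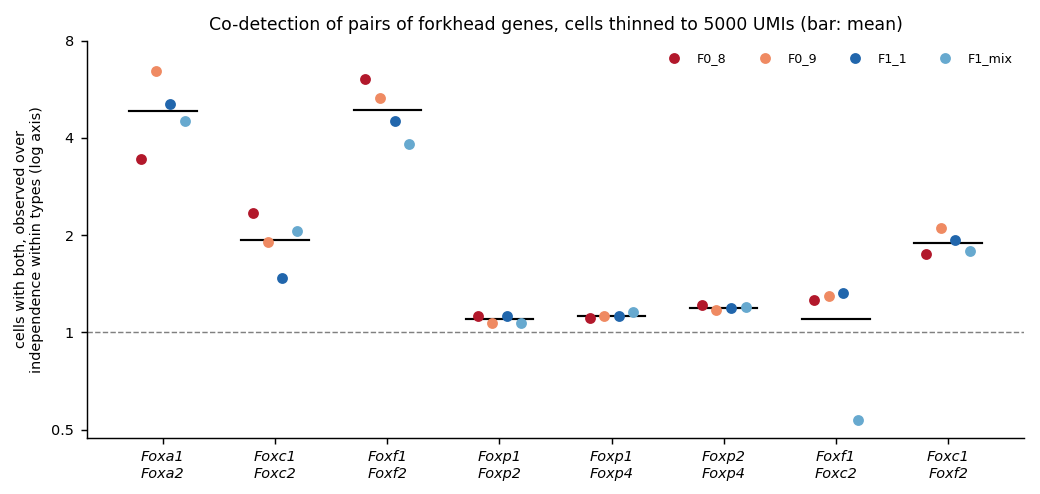
Cells with both genes of a pair, as observed over expected from independence within cell type and suspension (y axis, log scale, 1 = independence), for 8 pairs of genes (x axis) with 1 point per suspension and a bar at the mean, cells thinned to 5000 UMIs. Foxa1 with Foxa2 and Foxf1 with Foxf2 lie near 5, the Foxp pairs just above 1, and Foxf1 with Foxc2 spans 0.535 to 1.32.

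The genes with the most similar pattern were found by Pearson's r of log2(level + 0.1) over 36 points (9 deep types in 4 suspensions, which share libraries and depth) among 10402 genes with 500 or more UMIs, as a description. That limit leaves out Foxa1, Foxa2 and Foxf2 as partners. Foxa2 was most like Chchd10 (0.898) and Shh (0.874), and Foxa1 like the same genes (0.859 and 0.855), below its r of 0.896 with Foxa2. Foxc1 was most like Tgfbi (0.969), Lum and Cxcl12, and Foxc2 like Foxc1 itself (0.958). Foxd1 and Foxf2 were most like Pdgfrb (0.948 and 0.922), Foxf1 like Nrk (0.904), Foxp1 like Col12a1 (0.868), Foxp2 like Gmds (0.889) and Foxp4 like Cald1 (0.929).

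The founder suspensions were compared with the F1 suspensions in the 13 types with 20 or more cells in each, by edgeR's quasi-likelihood test on UMIs summed per suspension with Benjamini-Hochberg adjustment over all genes of a type. Of 66 tests of members, 4 passed at an adjusted p of 0.05, 1 higher and 3 lower in founders, against 0.492% higher and 0.26% lower of the 99241 tests of all genes. Before adjustment 25 of 66 (37.9%) had a p under 0.05, against 10.2% of all tests. The tests of all genes were not matched to the members by UMI count, and the part of UMI count in these shares was not tested. Tests on 1 gene in several types share their suspensions and are not independent, and each generation was represented by 2 suspensions from 1 library, so generation, embryo and the mixing of F1_mix cannot be told apart.

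Foxf1 was lower in founders in Gut Mesenchyme/Amniotic Mesoderm. Its levels of 0.335 and 0.146 in F0_8 and F0_9 lay below the 0.702 and 0.784 of F1_1 and F1_mix, a log2 fold change of -1.59 (SE 0.27, adjusted p = 0.0203), and the call held in every alternative that was run. The share of cells with a UMI moved with it, at 10.4% and 8.77% against 22.7% and 23.1%, and UMIs per Foxf1 cell were 4.07 and 2.20 against 4.45 and 4.88, also without overlap. Without the cell with most Foxf1 in each suspension the levels were 0.273, 0.116, 0.642 and 0.727. Droplets outside the used cells gave Foxf1 levels of 0.151 at 1 to 100 UMIs, near that of F0_9, and 0.0786 at 101 to 300 UMIs.

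Foxp1 and Foxp2 were lower in founders in the same type. Foxp1 gave 3.08 and 3.30 in founders and 4.26 and 4.27 in F1, a log2 fold change of -0.44 (SE 0.068, adjusted p = 0.0121), and Foxp2 5.54 and 5.57 against 6.97 and 7.16, or -0.37 (SE 0.056, adjusted p = 0.0117). Neither pair of groups overlapped. The Foxp2 call was lost without F0_8 (adjusted p = 0.143) and without F0_9 (0.0971), and the Foxp1 call without F0_8 (0.167), when a founder group of 1 suspension is assumed to vary like the others. Foxd1 in this type was 0.663 and 1.21 against 1.99 and 1.27, a log2 fold change of -0.83 that did not pass (adjusted p = 0.204).

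Foxp2 went the other way in Chondrocyte, at 6.22 and 7.39 in founders and 4.49 and 4.99 in F1, a log2 fold change of 0.51 (SE 0.10, adjusted p = 0.0301). This call was lost under 3 other settings and without F0_9 (adjusted p = 0.0551 to 0.483). The share of cells with Foxp2 was alike (75.0% and 78.0% against 76.8% and 75.7%). In Neuroectoderm/Glia the levels were 2.57, 1.53, 1.11 and 0.634, a log2 fold change of 1.27 that did not pass (adjusted p = 0.0978). Of the 9106 genes tested in Chondrocyte, 73 were higher in founders and 33 lower. Among companion genes called there, Col2a1 (log2 fold change 0.87), Pax1 (2.42) and Osr1 (1.33) were higher. Hand1 (-3.34) and Krt8 (-2.15) were lower, and the part of these genes in the Foxp2 call was not tested.

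Other genes of the gut mesenchyme type moved with these calls, where 1.03% of the 11099 genes tested in the type were higher in founders and 0.595% lower. Of 10 tested genes in the stroma and forebrain list, 4 were lower in founders, with Wt1, Tcf21 and Meis1 among them, and 0 higher, and of 18 in the hedgehog and BMP list 2 were lower, Gata4 among them, and 0 higher. Wt1, of kidney and mesothelium, had a log2 fold change of -1.99 (adjusted p = 0.00782) and Tcf21 one of -1.60 (adjusted p = 0.00887). Sox9 and Col2a1 were the 2 of 15 paraxial and cartilage genes that were higher in founders (0.75 and 0.50 on the log2 scale), and the dissociation stress genes Egr1 and Jun, 2 of 4 tested, were also higher (0.83 and 0.47). The floor plate list had 1 of 5 tested genes higher, Lmx1b, which also acts in the dorsal limb (1.28 on the log2 scale, adjusted p = 0.0122), and the spinal list 1 of 6, the posterior Hox gene Hoxa10 (1.21, adjusted p = 0.00233). The endoderm list had 1 of 6 lower, again Gata4, and the endothelium, cofactor and neighbour lists had none of 3, 8 and 5 called in either direction. The type held 259 and 171 founder cells and 97 and 147 F1 cells. The part of these other genes, of stress genes and of cell numbers in the Fox calls was not tested.

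**Figure D5:**
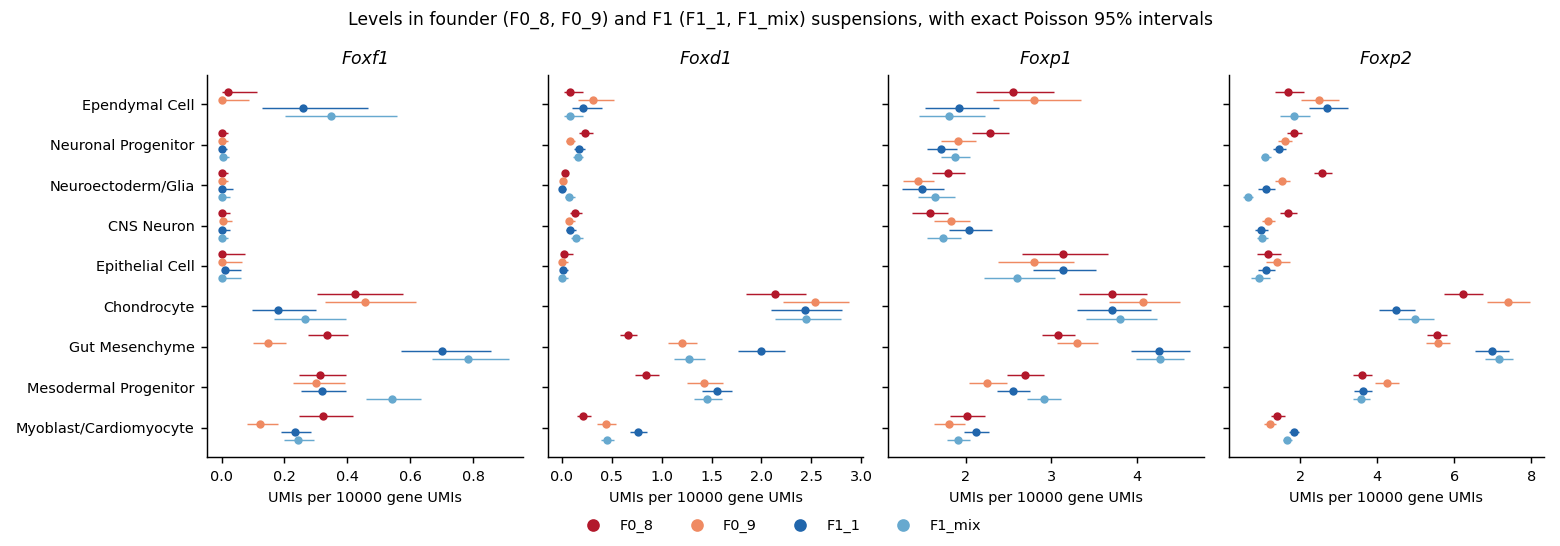
Levels of 4 members (x axis, UMIs per 10000 gene UMIs, a separate axis for each gene) in the 9 deep types (y axis), 1 point per suspension with its exact Poisson 95% interval, which covers counting error only. In gut mesenchyme the founder points of Foxf1, Foxp1 and Foxp2 lie below both F1 points, and in Chondrocyte those of Foxp2 lie above them.

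Among members that did not pass, Foxa2 had lower values in founders in CNS Neuron (0.0569 and 0.0302 against 0.160 and 0.115, a log2 fold change of -1.66 with adjusted p = 0.187), in Ependymal Cell (-1.40, adjusted p = 0.458) and in Epithelial Cell (-0.91, adjusted p = 0.683). In the remaining neural types, where it was under the filter on low counts, founders and F1 overlapped, with F1_mix below both founders in Neuroectoderm/Glia (0.0323, 0.0521, 0.182 and 0.0219) and below F0_9 in Neuronal Progenitor (0.00521, 0.0334, 0.105 and 0.0201). Foxf1 in Ependymal Cell had a log2 fold change of -4.52 (adjusted p = 0.142), from levels of 0.0204, 0, 0.260 and 0.349, and this rested on 4 cells. The 3 cells from F1 suspensions held 6 to 11 Foxf1 UMIs each, no UMI of Ttr, Foxj1 or Sox2, and 1 to 10 UMIs of the fibroblast collagen gene Col3a1, while the founder cell held 627 UMIs of Ttr. Col3a1 was chosen after its values were seen.

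A joint edgeR quasi-likelihood fit, added after the calls by type were seen, tested whether the founder minus F1 difference of a gene itself differed among the 9 deep types. It was passed by 2 of 10 members, Foxp2 (adjusted p = 0.0289) and Foxf1 (adjusted p = 0.0490), against 0.55% of 12371 genes. Without the Ependymal Cell type Foxp2 stayed below 0.05 (0.0167) and Foxf1 did not (0.134). Leaving out each suspension in turn, in the order used for levels, gave 0.0887, 0.00302, 0.205 and 0.349 for Foxp2 and 0.0403, 0.0975, 0.443 and 0.341 for Foxf1.

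The other 34 forkhead genes serve as a backdrop. Of these, 7 had 1000 or more UMIs, led by Foxn3 (17046), Foxk2 (3379) and Foxj3 (2854), and followed by Foxn2, Foxo3, Foxo1 and Foxk1. Foxn3 was highest in Neuronal Progenitor at a pooled level of 3.07 and stood at 3.0 in gut mesenchyme. Foxo3 was highest in Erythroblast (0.921), a type in which no member led.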

How the data were processed

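Single cells of 4 suspensions were captured as 1 gene expression library with a matching oligo library, which only assigned cells. The UMI counts were deposited by the authors per suspension after alignment by Cell Ranger, given as 7.2.0 in the headers, to GRCm38 (mm10) with EGFP added. The suspension and cell type of each cell came from the authors' deposited table. Its 20 other columns were not used. The authors named SoupX, DoubletFinder, Seurat and RECODE, and the deposited counts were used without further correction or doublet calling.

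Suspensions were grouped from the series description, founders (F0_8 and F0_9, replicates 1 and 2) against F1 (F1_1 and F1_mix), and cells were not treated as replicates. With 2 suspensions each, p-values measure only the spread between these suspensions. Counts were summed per suspension and type and tested with edgeR 4.0.16 in R 4.3.3 (filterByExpr, TMM, glmQLFit, Benjamini-Hochberg). DESeq2 1.42.0 was an alternative. Thinning drew 5000 gene UMIs per cell without replacement. Each fit was tested on simulated counts. These used 1 fixed dispersion that was not estimated from these data, so they do not test the spread between these embryos. Levels, shares and figures used Python 3.11.15, numpy 2.4.6, pandas 2.3.3, scipy 1.17.1 and matplotlib 3.10.9. Gene positions and promoters came from RefSeq (GRCm38.p6).

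All 10 members were named. Other forkhead genes were named from 1000 UMIs, companion genes where their level differed most between cells with and without a member, and the most similar genes among those with 500 or more UMIs. The members and lists were chosen with earlier results of these data known. Of 116 companion names, 1 had no feature. Some genes of the lists are counted but not reported here by name.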

Additional observations from a re-analysis of the deposited data

Results flagged for a closer look

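The founder minus F1 difference of Foxp2 differed among the 9 deep types by the test of that difference itself (edgeR quasi-likelihood, adjusted p = 0.0289). The log2 fold changes were 0.51 in Chondrocyte and -0.37 in gut mesenchyme, with a larger rise in Neuroectoderm/Glia that did not pass by itself. The adjusted p for Foxp2 was no longer below 0.05 without F0_8 (0.0887), F1_1 (0.205) or F1_mix (0.349). The same test gave an adjusted p = 0.0490 for Foxf1, which rested in part on 4 cells of the Ependymal Cell type and was 0.134 without that type and 0.0975, 0.443 and 0.341 without F0_9, F1_1 and F1_mix. No other member was below 0.05 in that test (edgeR, 8 of 10 members). The test was added after the differences by type were seen.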

How the results depend on the processing

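No paired analysis was possible because the suspensions carry no replicate number that links a founder to an F1 suspension. The 4 founder against F1 calls in 66 tests of members numbered 4 of 90 with DESeq2 (3 of them shared, with Foxp2 in Neuroectoderm/Glia in place of Foxp2 in Chondrocyte) and 4 of 66 with its size factors, became 12 of 115 without a filter on low counts and 3 of 54 among cells under 5% mitochondrial UMIs, and ranged from 3 to 8 when each suspension was left out in turn (8 without F1_1, 7 without F1_mix). Across all genes the calls went from 746 (0.752% of tests) to 445 (0.318%) with DESeq2, 708 (0.713%) with its size factors, 3154 (1.67%) without a filter, 619 (0.702%) under 5% mitochondrial UMIs and 511 to 1585 (0.481% to 1.48%) without 1 suspension. The members whose difference differs among types went from 2 to 1 without Ependymal Cell and to 0 or 1 without 1 suspension, while the genes called went from 68 of 12371 to 61 of 12211 and to 41, 127, 21 and 32 without F0_8, F0_9, F1_1 and F1_mix.

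Co-detection thinned to 2000 UMIs gave 5.80 for Foxa1 with Foxa2 (SD 6.85), 2.19 for Foxc1 with Foxc2, 8.01 for Foxf1 with Foxf2, 1.2, 1.09 and 1.27 for Foxp1 with Foxp2, Foxp1 with Foxp4 and Foxp2 with Foxp4, 1.60 for Foxf1 with Foxc2 and 0.663 for Foxc1 with Foxf2, a reversal. The cause was not tested. At 2000 UMIs Foxp1 with Foxp4 was above 1 in 3 of 4 suspensions. Foxf1 with Foxc2 (SD 1.46) was above 1 in 2 of 4 and rested on 10 cells with both genes. With types not kept apart, a construction that adds differences between types, the ratios were 19.4 for Foxa1 with Foxa2, 4.61 for Foxc1 with Foxc2, 10.3 for Foxf1 with Foxf2, 1.19, 1.24 and 1.43 for the Foxp pairs, 2.31 for Foxf1 with Foxc2 and 4.03 for Foxc1 with Foxf2.

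The level of each member in its leading type moved by under 1 SD in every alternative, except 1 (Foxf2, 0.192 as a mean over cells). Shares of cells moved by more than 1 SD for 8 of 10 members at 2000 UMIs and for 8 of 10 without thinning. Of 35 summaries of companion lists, 19 moved at 2000 UMIs. The 3 members with the same leading type (27.8% of all genes) became 4 with shallow types included (18.5%), and 3 again with mitochondrial and haemoglobin UMIs also left out (15.1%). Foxa1 and Foxa2, at 188 and 272 UMIs, rest on few counts, and the part of depth in this was not tested.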
